A study of Mus musculus with 2 samples.

Results

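RNA-seq of WT and H3.3 G34R mouse embryonic stem (ES) cells was examined for 9 genes of the Nodal pathway and the primed epiblast, out of 26127 probes quantitated in each library. The genes are the ligands Nodal and Gdf3, the co-receptor Tdgf1, the inhibitors Lefty1, Lefty2 and Smad7, and the epiblast genes Otx2, Fgf5 and Pou3f1. They were found by name, and each name matched 1 probe. The set had been chosen by its measured RPKM in the same 2 libraries as well as by known function, so its differences are a description and carry no test. WT cells were unmodified 129S1/SvImJ ES cells with 2 normal copies each of H3f3a and H3f3b. G34R cells were of the same strain, with exon 2 of 1 H3f3a copy replaced so that the mutant coding sequence is driven by the endogenous H3f3a promoter after Cre excision of a WT minigene and a neo cassette, while the other copy of H3f3a and both of H3f3b are normal. Both lines were below passage 20, were grown in 15% foetal calf serum with leukaemia inhibitory factor, and gave 1 library each. Genotype, clone and culture therefore cannot be told apart, and no value has a replicate.

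Nodal is a secreted ligand of the TGF-beta superfamily. With an EGF-CFC co-receptor such as Tdgf1 (Cripto) it binds activin receptors, which phosphorylate Smad2 and Smad3, and these enter the nucleus with Smad4 and act with DNA-binding partners such as Foxh1. The genes for Lefty1 and Lefty2, secreted antagonists of Nodal, and for Nodal itself are among its known targets, so that the pathway holds both a positive and a negative loop. In the mouse embryo Nodal signalling maintains the epiblast and later patterns it. Otx2, Fgf5 and Pou3f1 are used as markers of epiblast cells that have left the naive state, which ES cells in serum and leukaemia inhibitory factor resemble to a varying degree.

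Depth is not given with the deposited values, but the lowest values step by whole reads in short genes with a single exon, which placed the normalisation totals near 87.7 M reads for WT cells and 72.7 M reads for G34R cells. The ES cell markers Pou5f1 and Sox2 were high in both lines, at 194.34 and 73.83 RPKM in WT cells and 189.46 and 75.05 RPKM in G34R cells. Of the other markers in that list, Sall4 had 46.26 RPKM in WT and 41.41 RPKM in G34R cells. Nanog and Zfp42 fell more than 2-fold, from 127.07 to 52.24 RPKM and from 180.30 to 16.40 RPKM. H3f3a, the targeted gene, had 8.17 RPKM in WT and 4.89 RPKM in G34R cells. This measure does not separate the alleles, and how far it counts reads of the edited copy was not checked. It therefore does not check the labels. The lines differed elsewhere too, since the 5 Y-linked probes that reached 1 RPKM in the WT library were all lowered more than 2-fold in the other, and the 595 expressed probes on chromosome 8 had a median log2 (G34R/WT RPKM) of 0.36. None of the 9 genes lies on chromosome 8 or Y. Hprt, named after its value was seen, was far higher in the edited line, at 48.39 RPKM against only 1.31 RPKM in the WT library. Whether the edited line was derived from this WT line was not tested.

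Lefty1 and Lefty2 fell furthest of the 8 genes for which a fold is given, to 13.5% and 10.3% of their WT level. Lefty2 (chromosome 1, 182823239 to 182829234 in mm9, plus strand, 4 exons) had 37.82 RPKM in WT and 3.89 RPKM in G34R cells, a log2 (G34R/WT RPKM) of -3.28. Lefty1 (chromosome 1, 182865153 to 182868531, plus strand, 4 exons) had 39.91 RPKM in WT and 5.39 RPKM in G34R cells, for a log2 ratio of -2.89. Lefty1 was 1.06 times Lefty2 in WT cells and 1.39 times Lefty2 in G34R cells. The values rest on an estimated 8202 and 699 reads for Lefty2 and on 5670 and 635 reads for Lefty1, in WT and G34R cells respectively. From these reads the 95% Clopper-Pearson intervals of the log2 ratios were -3.40 to -3.17 for Lefty2 and -3.01 to -2.77 for Lefty1. Such intervals cover counting error only, since reads amplified without molecular identifiers are not independent molecules and the spread between cultures is unknown. In bulk RNA, fewer cells that express a gene and less RNA per cell cannot be told apart.

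The Lefty genes are close paralogs, and their reads can be told apart only where the sequences differ. Their coding sequences are both 1107 bases long and differ at 90 positions (91.9% identical), and 26.6% of the 1058 possible 50-base reads within them would be the same for both genes. The 50-base stretch that differs most, with 15 differences in capitals, lies near the start of the coding sequence at chr1:182865270-182865319 in Lefty1 and chr1:182823344-182823393 in Lefty2 (mm9, plus strand). It is shown because reads from it are specific to 1 gene:
Lefty1: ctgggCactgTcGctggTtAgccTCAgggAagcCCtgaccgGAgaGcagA
Lefty2: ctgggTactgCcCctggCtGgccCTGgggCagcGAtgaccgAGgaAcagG
Over all exons, 19.4% of the 50-base words of Lefty1 and 15.2% of those of Lefty2 have another exact copy in the mm9 genome. The sum of both genes, which such sharing between them does not alter except through transcript length, went from 77.73 RPKM in WT to 9.28 RPKM in G34R cells, an 8.38-fold fall.

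The ligands differed less between the lines than their antagonists. Nodal (chromosome 10, 60880720 to 60888086, plus strand, 3 exons) had 23.36 RPKM in WT and 12.70 RPKM in G34R cells. It was 1.84-fold lower in G34R cells, a log2 ratio of -0.88 with a counting interval of -0.96 to -0.80, and did not pass 2-fold. Gdf3 (chromosome 6, 122555421 to 122560105, minus strand, 2 exons), a related ligand that uses the same receptors and co-receptor, had 22.04 RPKM in WT and 18.40 RPKM in G34R cells, for a log2 ratio of -0.26. Nodal and Gdf3 were therefore level with each other in WT cells, with a Nodal to Gdf3 ratio of 1.06, and Nodal was the lower of the pair in G34R cells, with a ratio of 0.69. None of the 1948 exonic 50-base words of Nodal has another copy in the genome, against 2.76% of those of Gdf3.

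Tdgf1, the co-receptor that Nodal needs to engage activin receptors, was the highest of the 9 genes and hardly differed between the lines. It lies on chromosome 9 (110842114 to 110848662, minus strand, 6 exons) and had 261.25 RPKM in WT and 255.61 RPKM in G34R cells. The log2 ratio was -0.03 as deposited and 0.01 with the RPKM sums made equal, so the data give it no direction. Of its exonic 50-base words, 24.2% have another exact copy in the genome, and its RPKM is to that extent uncertain. As a multiple of Nodal, Tdgf1 stood at 11.2 in WT cells and 20.1 in G34R cells, while the sum of Lefty1 and Lefty2 stood at 3.33 and 0.73. The antagonists thus outnumbered the ligand per length of transcript in WT cells and were below it in G34R cells.

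Smad7, an intracellular inhibitor that binds the activated type I receptor and is itself a target of Smad signalling, did not follow the Lefty genes. It lies on chromosome 18 (75527183 to 75555589, plus strand) and had 13.92 RPKM in WT and 16.26 RPKM in G34R cells, for a log2 ratio of 0.22 with a counting interval of 0.17 to 0.28. None of its exonic 50-base words has another copy in the genome.

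Of the epiblast genes, Otx2 alone passed 2-fold. Otx2, a homeodomain transcription factor that drives exit from the naive state, fell 3.94-fold, from 5.59 RPKM in WT to 1.42 RPKM in G34R cells (chromosome 14, 49277354 to 49287319, minus strand). Its log2 ratio of -1.98 had a counting interval of -2.15 to -1.81, from an estimated 1665 and 351 reads. Pou3f1 (Oct6), a POU factor of the formative epiblast and a gene of 1 exon on chromosome 4 (124334896 to 124337899, plus strand), was weakly expressed in both lines. It had 1.80 RPKM in WT and 2.31 RPKM in G34R cells, for a log2 ratio of 0.36 with an interval of 0.18 to 0.54. Fgf5, a growth factor transcribed strongly in primed epiblast, was near the limit of detection (chromosome 5, 98683203 to 98706049, plus strand, 3 exons). It had 0.12 RPKM in WT cells, about 26 reads, and was listed at 0 in G34R cells, where 3 reads would amount to 0.0165 RPKM. At no more than 0.12 RPKM, Fgf5 did not reach the level used for fold changes and no fold is given for it.

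**Figure D1:**
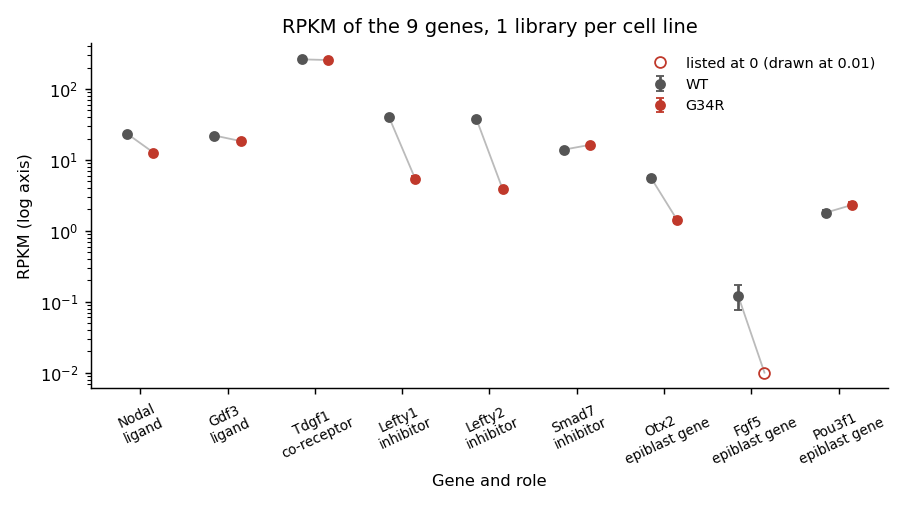
RPKM (log axis) of the 9 genes in WT (grey) and G34R (red) cells, 1 library each, with the role of each gene under its name; bars are 95% Poisson intervals of the estimated reads, mostly smaller than the points. Lefty1, Lefty2 and Otx2 drop steeply, Tdgf1 is nearly level, from 261.25 to 255.61 RPKM, and Fgf5 is listed at 0 in G34R cells and drawn as an open point at 0.01 RPKM.

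Of the 9 genes, 8 had at least 0.25 RPKM in 1 or both libraries. Of these 8, Lefty1, Lefty2 and Otx2 fell more than 2-fold, 0 rose more than 2-fold and 5 stayed within 2-fold. Among all 13366 probes at this level, 9.64% were down more than 2-fold and 5.79% were up, and nothing is read from the count of 3 beside these shares because the genes were chosen with their ratios known. The median log2 ratio was -0.57 over the 8 genes and -0.07 over all probes. As a description of where their values lie, a ratio as low as that of Lefty2 was found in 1.89% of the 13366 probes, as low as that of Lefty1 in 2.35%, as low as that of Otx2 in 3.96% and as low as that of Nodal in 11.3%. Many probes with such ratios are weakly expressed. Among the 5442 probes with at least 5 RPKM in WT cells, 37 had a ratio as low as Lefty2 and 46 as low as Lefty1, while 83 were as low as Otx2 and 300 as low as Nodal.

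**Figure D2:**
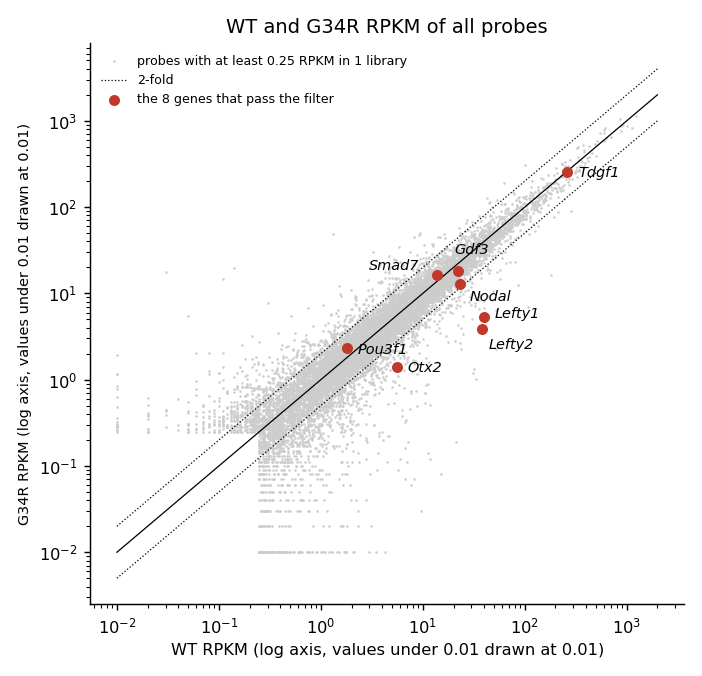
WT against G34R RPKM (log axes) of the 13366 probes with at least 0.25 RPKM in 1 library (grey), with the 8 of the 9 genes that reach this level in red; the solid line marks equal values and the dotted lines 2-fold. Lefty1, Lefty2 and Otx2 lie below the lower dotted line, Nodal just above it, and Tdgf1 on the line of equal values.

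The 5 probes nearest to Lefty1 in both libraries, by distance on the log2 RPKM scale among those with at least 5 RPKM in WT cells, were Gm15564, Zfp600, Triml2, Rex2 and Gm13225, at distances of 0.22 to 0.46. Their RPKM was between 30.46 and 52.39 in WT cells and between 4.62 and 6.68 in G34R cells. With 2 libraries this likeness rests on a pair of values per probe.

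The Lefty genes lie beside the targeted gene. Lefty2 lies 79.2 kb and Lefty1 lies 121.1 kb from H3f3a on chromosome 1, so the edited locus and both genes are neighbours. Most of the surrounding genes were within 2-fold. Within 1 Mb of H3f3a, 14 other genes had at least 1 RPKM in 1 library, and their median log2 ratio was -0.11, with a range of -1.22 to 0.26. Only Tmem63a, which codes for a membrane ion channel protein and lies 128.4 kb from H3f3a, passed 2-fold among these 14, from 1.95 RPKM in WT to 0.84 RPKM in G34R cells. Of all probes at this level, 6.42% were down and 4.09% were up more than 2-fold. The count of 1 in 14 is near these shares and is not a result about the region. Parp1, a DNA damage sensor, had 125.68 and 150.24 RPKM, and Nvl, a nuclear ATPase, had 26.03 and 25.44 RPKM, in WT and G34R cells. The shares of the nearby targeting and of the line as a whole in the fall of the Lefty genes cannot be told apart with these libraries.

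**Figure D3:**
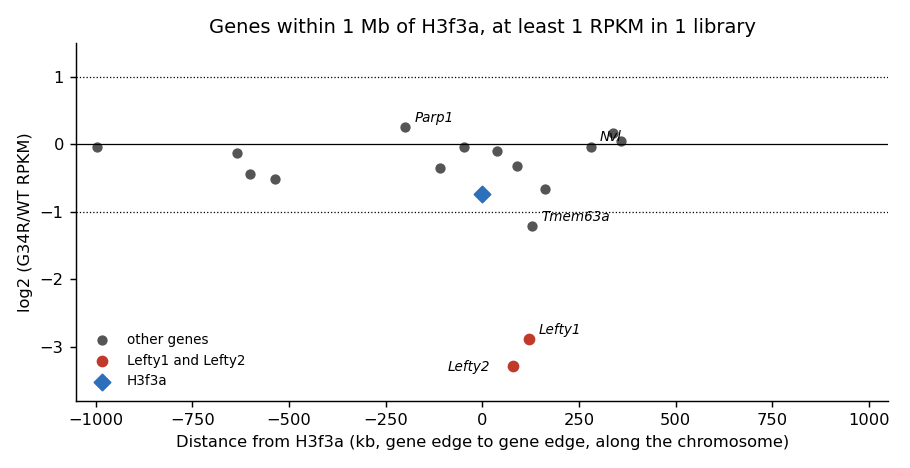
Log2 (G34R/WT RPKM) of genes with at least 1 RPKM in 1 library against their distance from H3f3a in kb along the chromosome; dotted lines mark 2-fold. Lefty1 and Lefty2 (red) are near -3, while the 14 other genes (grey) lie between -1.22 and 0.26 and H3f3a itself (blue) is at -0.74.

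The other genes of the set were also set beside their neighbours. Within 1 Mb of Nodal, 17 genes had at least 1 RPKM in 1 library and a median log2 ratio of 0.03, against -0.88 for Nodal, and 2 of the 17 were as low. Around Otx2 there were 6 such genes with a median of -0.15, and 0 of them were as low as Otx2 at -1.98. Gdf3 shares its region with the pluripotency factor Nanog. The log2 ratio of Gdf3, -0.26, was close to the median of -0.30 over 10 neighbours, among which Nanog fell from 127.07 RPKM in WT to 52.24 RPKM in G34R cells. Around Tdgf1, 3 of 17 neighbours fell more than 2-fold while Tdgf1 did not, beside 6.42% of all probes with at least 1 RPKM. All 3 lay within 250 kb of Tdgf1, where 6 such genes had a median log2 ratio of -0.58. Smad7 and Pou3f1 were at or above most of theirs, with 5 of 6 and 18 of 20 neighbours as low or lower. The nearest of the genes that fell beside Tdgf1, Lrrc2, is 5.4 kb away and went from 6.46 to 1.95 RPKM. Nanog and Lrrc2 were picked for mention after their values were seen.

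**Figure D4:**
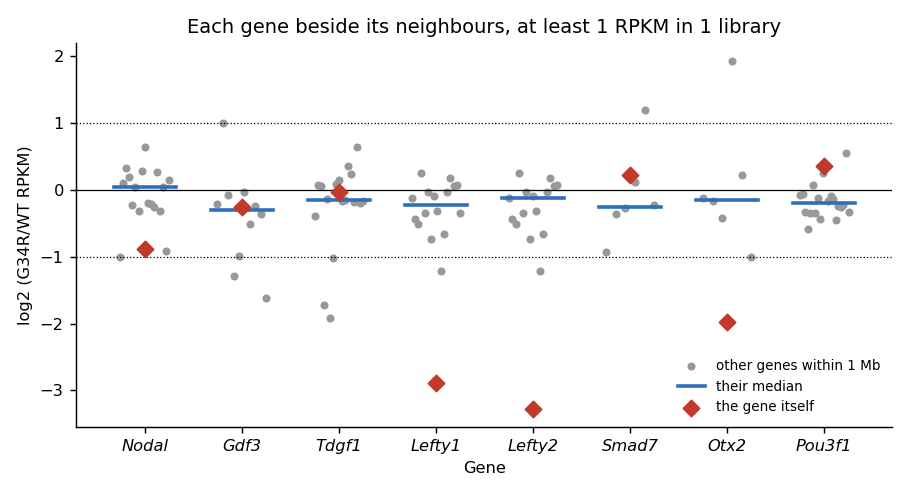
Log2 (G34R/WT RPKM) of 8 of the 9 genes (red diamonds) and of the other genes with at least 1 RPKM in 1 library within 1 Mb of each (grey points, median in blue); dotted lines mark 2-fold. The 9 genes are left out of the neighbours drawn, so Lefty2 is not among those of Lefty1. Lefty1, Lefty2 and Otx2 lie below all the neighbours drawn, and Gdf3, Tdgf1 and Smad7 lie among theirs.

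No receptor, Smad or partner with at least 1 RPKM passed 2-fold. Of 13 listed receptors, Smads and partners, 10 had at least 1 RPKM in 1 library and all 10 were within 2-fold, with a median log2 ratio of -0.01, against a median of -0.05 over the 10728 probes at this level. In those 10728 probes 6.42% were down more than 2-fold and 4.09% were up, so that 0 of 10 is near the background and is not a result about these genes. With the minimum lowered to 0.25 RPKM, Tgfbr2, a type II receptor for TGF-beta named after its value was seen, also counted, at 0.05 RPKM in WT and 0.55 RPKM in G34R cells. Smad4, the common partner of receptor-activated Smads, had 11.69 RPKM in WT and 13.82 RPKM in G34R cells, and Foxh1, the forkhead partner, had 11.71 and 12.18 RPKM. Acvr1b and Acvr2b, a type I and a type II activin receptor, had log2 ratios of 0.39 and 0.42. Tgfbr1, a type I receptor for TGF-beta, had the lowest ratio, from 3.81 RPKM in WT to 2.11 RPKM in G34R cells.

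Of 13 listed ligands, co-receptors and processing enzymes, 8 had at least 1 RPKM. None of the 8 passed 2-fold, which is near the background of 6.42% down and 4.09% up, with a median log2 ratio of -0.08, and 3 of the 8 are Nodal, Gdf3 and Tdgf1 themselves. Furin and Pcsk6, proprotein convertases that cleave the Nodal precursor, went from 1.36 to 2.56 RPKM and from 9.67 to 11.41 RPKM. Gdf1, another ligand, had a log2 ratio of -0.57, but it shares a transcript with Cers1, so that its reads cannot be assigned with certainty.

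Of 20 listed inhibitors, 16 had at least 1 RPKM, of which 3 fell and 2 rose more than 2-fold, beside 6.42% and 4.09% of all probes, with a median log2 ratio of 0.02. The genes that fell were Lefty1, Lefty2 and Skil, a nuclear repressor of Smads that went from 15.26 RPKM in WT to 7.45 RPKM in G34R cells. Lefty1, Lefty2 and Smad7 belong to the genes described here, which were chosen by their values. The other 13 of the 16 held 1 fall and 2 rises, with a median log2 ratio of 0.06. The genes that rose were Dact2, which promotes the degradation of Nodal receptors and went from 4.11 to 9.53 RPKM, and Dand5, a secreted Nodal antagonist that went from 0.50 to 1.02 RPKM. Dand5 was named for passing 2-fold, after its value was seen, and reached 1 RPKM in G34R cells only. It lies on chromosome 8, where the median log2 ratio was 0.36, and its own log2 ratio was 1.03. Skil no longer passed 2-fold with equal RPKM sums, median centring or a pseudocount of 1 RPKM, where 2 inhibitors fell, and with that pseudocount 1 rose. Tgif1, a corepressor of Smads, had 25.44 RPKM in WT and 25.02 RPKM in G34R cells.

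Of 16 listed targets of Nodal and activin signalling, 9 had at least 1 RPKM, of which Lefty1, Lefty2 and Skil fell and Eomes and Id1 rose more than 2-fold, beside 6.42% and 4.09% of all probes. Of the 9, 5 belong to the genes described here, which were chosen by their values, and the other 4 held 1 fall and 2 rises with a median log2 ratio of 1.22. The fall of Skil is lost under the settings named above. Eomes, a T-box factor of the primitive streak, had 0.43 RPKM in WT and 1.88 RPKM in G34R cells, and so reached 1 RPKM in G34R cells only. Id1, which is also the classic target of BMP signalling, had 9.22 RPKM in WT and 48.04 RPKM in G34R cells. The median log2 ratio was -0.03 over the 9 targets, and -0.88 with the minimum either lowered to 0.25 RPKM or raised to 5 RPKM. At 0.25 RPKM, Gsc (0.34 to 0.10 RPKM) was among the genes that fell. Gsc, a homeobox gene of the organizer, was named after its values were seen.

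Of 25 listed formative and primed epiblast genes, 19 had at least 1 RPKM, with a median log2 ratio of -0.65, and 6 fell and 1 rose more than 2-fold, beside 6.42% and 4.09% of all probes. With at least 5 RPKM the median was -0.09 and 2 fell, and with a pseudocount of 1 RPKM 4 fell. The summed level of the list was 259.48 RPKM in WT and 291.07 RPKM in G34R cells, so the lower median was not a lower sum. Of the genes that fell, Fgf15, Lef1 and Zic2 reached 1 RPKM in WT cells only, and Otx2 had been chosen by its value. Besides Otx2, the largest falls were those of Fgf15, a secreted growth factor (3.70 to 0.22 RPKM), Epha4, an ephrin receptor (13.86 to 1.61 RPKM), and Lef1, a nuclear partner of beta-catenin (1.08 to 0.20 RPKM). Zic2 and Zic5, adjacent zinc finger genes named after their values were seen, went from 2.01 to 0.52 RPKM and from 3.52 to 1.08 RPKM. Etv4, an ETS factor downstream of FGF signalling, rose from 14.10 to 45.33 RPKM, while its relative Etv5 had 54.29 RPKM in WT and 31.09 RPKM in G34R cells. Utf1, a chromatin protein of pluripotent cells, had 61.89 and 108.56 RPKM, a larger rise than that of the summed list. It also stands in the list of general pluripotency genes. Dnmt3b, the de novo DNA methyltransferase that rises in the epiblast, had 34.06 RPKM in WT and 32.08 RPKM in G34R cells.

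Of 15 naive pluripotency genes with at least 1 RPKM, 4 fell and 1 rose more than 2-fold, beside 6.42% and 4.09% of all probes, with a median log2 ratio of -0.27. Zfp42 (Rex1) fell from 180.30 to 16.40 RPKM, Klf2 from 36.12 to 9.34 RPKM, Tcl1 from 28.42 to 8.04 RPKM and Nanog from 127.07 to 52.24 RPKM. Klf5, a Kruppel-like factor named after its value was seen, rose from 26.08 to 52.35 RPKM and did not pass 2-fold with a pseudocount of 1 RPKM. Esrrb, a nuclear receptor of the naive network, had 51.53 and 50.05 RPKM, and the growth factor gene Fgf4 had 39.21 and 50.97 RPKM. All 10 general pluripotency genes were within 2-fold, which is near the background, with a median log2 ratio of -0.14.

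**Figure D5:**
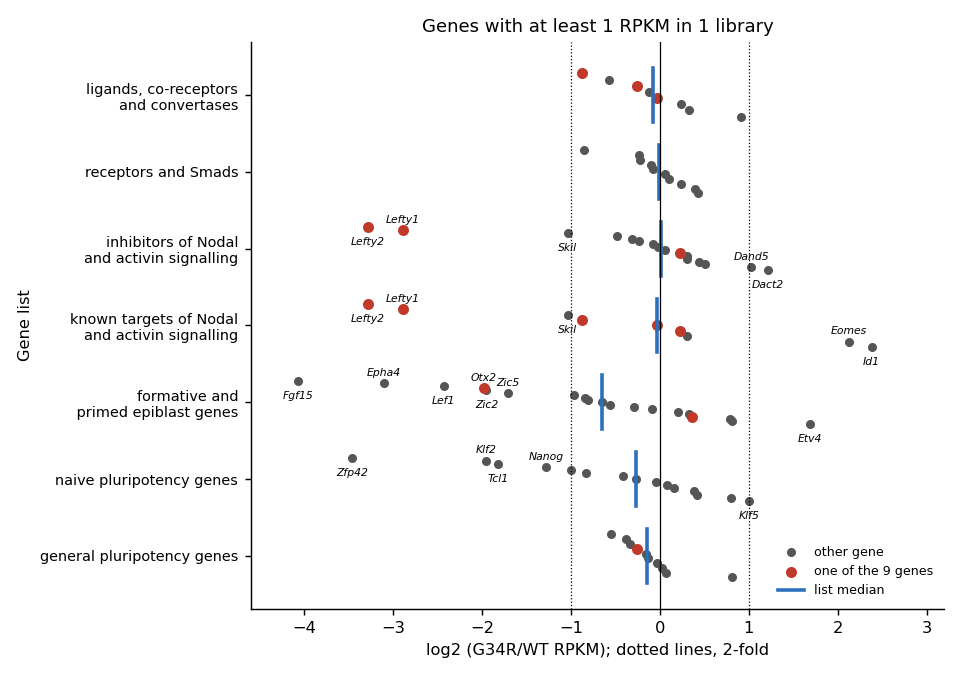
Log2 (G34R/WT RPKM) of genes with at least 1 RPKM in 1 library in 7 lists, with the 9 genes described here in red, other genes in grey, the list median as a blue bar and 2-fold as dotted lines; genes past 2-fold are named, and some genes stand in more than 1 list. The 10 receptors and Smads lie within 2-fold, and the falls lie among inhibitors, targets, epiblast genes and naive genes.

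Some markers of other cell types also differed between the libraries, several of them at levels near or below 1 RPKM. Of 11 primitive endoderm markers 4 had at least 1 RPKM, and the summed level of the list was 21.35 RPKM in WT and 33.40 RPKM in G34R cells, with Lama1 at 11.56 and 20.26 RPKM, Gata4 at 0.50 and 1.18 RPKM and Gata6 at 0.30 and 1.09 RPKM. In the same list Hnf4a had 0.56 and 0.06 RPKM and Afp was listed at 0 in both lines. Of 6 primitive streak and mesoderm markers only Eomes reached 1 RPKM, and the sums were 0.84 and 2.51 RPKM. Of 5 neural markers in the files 3 reached 1 RPKM, with sums of 37.40 and 28.09 RPKM, in which Olig2 went from 0.03 to 17.71 RPKM and Tubb3 from 35.58 to 8.36 RPKM. None of 5 trophoblast markers reached 1 RPKM (sums of 0.50 and 0.60 RPKM). Of 6 feeder fibroblast markers only Thy1 did (1.48 and 0.94 RPKM in sum), with Lum and Postn listed at 0 in both lines. Of 3 markers of 2-cell-like cells in the files 2 reached 1 RPKM, and their sums were 3.83 and 0.20 RPKM. The part of these other cell types in the lower level of the Lefty genes, Otx2 and Nodal was not tested. The markers below 1 RPKM were named after their values were seen.

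The promoter table matched Nodal, Tdgf1, Otx2 and Fgf5 and not Lefty1, Lefty2, Gdf3, Smad7 or Pou3f1, with 4 start sites for Otx2, as 250 bases before and 50 after each start (RefSeq, GRCm38.p6). The motif read by Foxh1, written AATNCACA and searched on both strands, was in none of these 7 windows and in 3.6% of all 32851 windows. The Smad box CAGAC was in the Tdgf1 window and not in the other windows of these genes, against 49.6% of all. These letters are a description of the windows and not of binding.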

How the data were processed

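The authors prepared 1 stranded total RNA library from each ES cell line (500 ng input, 12 amplification cycles) and sequenced both on 1 lane as 50 bp single reads. According to the methods and the submitters' processing notes, alignment was to mm9 by STAR 2.4.2a, and the authors quantitated the reads in Seqmonk and deposited RPKM per probe, with isoforms merged and corrected for transcript length. Each value is scaled to the total of its own library, and read counts were not analysed here.

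Ratios were formed from the deposited values as log2 (G34R/WT RPKM), with RPKM under 0.01 set to 0.01. Probes counted as down or up had at least 0.25 RPKM (lists, 1 RPKM) in 1 library and more than 2-fold change. With 1 library per line no test was made. Normalisation totals were estimated from single-exon genes under 800 bp (GENCODE M1, the mm9 build of the files) with fewer than 6 reads, and reads per gene from RPKM, merged exon length and this total. Intervals are at 95%, from the Poisson distribution for each library and by the Clopper-Pearson method for ratios. Exonic 50-base words were searched on both strands of 211 mm9 sequences.

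The genes, lists and thresholds were chosen with earlier results of these data known. From each list, the text names up to 4 genes with the largest mean RPKM and up to 4 with the largest change among those with at least 1 RPKM, and around H3f3a every gene past 2-fold and the 3 with the largest mean RPKM. The text says so where other genes are named. Some items these rules select are not reported here. Alternatives were other pseudocounts, scalings, thresholds, filters and windows. Python 3.11.15, NumPy 2.4.6, SciPy 1.17.1 and pandas 2.3.3 were used.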

Additional observations from a re-analysis of the deposited data

How the results depend on the processing

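The 3 falls past 2-fold (Lefty1, Lefty2 and Otx2) and the absence of rises among the 9 genes held under each of 4 other ways of forming the ratio (a pseudocount of 1 RPKM, addition of 0.01 RPKM, equal RPKM sums and centring on the median). A threshold of 3-fold left the count at 3, and 1.5-fold raised it to 4 by adding Nodal. A pseudocount of 1 RPKM moved the log2 ratios of Lefty1, Lefty2 and Otx2 to -2.68, -2.99 and -1.45. The sign changed for Tdgf1 alone, under equal RPKM sums and median centring, which shift ratios between values above 0.01 RPKM by 0.0461 and 0.0447. Under both, as with a pseudocount of 1 RPKM, Skil stayed within 2-fold. Over all probes, the counts down and up were 356 and 196 with a pseudocount of 1 RPKM, 2422 and 1780 at 1.5-fold, 721 and 331 at 3-fold, 2877 and 1445 with no filter, 689 and 439 with at least 1 RPKM and 239 and 181 with at least 5 RPKM. The 250 kb window gave a median log2 ratio of -0.32 around H3f3a. Totals of 86.4 M and 71.5 M reads resulted from single-exon genes of any length. With 1 library per line, no replicate could be left out. No paired analysis was possible because each line has 1 library. The spread between cultures is unknown, and depth limits Fgf5 most.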
